A study of Arabidopsis thaliana with 4 samples.

Results

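The flavonol and anthocyanin genes of *Arabidopsis* comprised 10 of the 33476 annotations in the deposited FPKM table (sequenced fragments scaled to the length of the annotation and to the mapped total of the library), and were chosen by locus identifier. They encode the enzymes CHS, CHI, F3H, F3'H, FLS1, DFR and LDOX and the transcription factors PAP1, MYB12 and MYB111, and all 10 locus identifiers were found in the table. The study compared the transcriptomes of dividing tissue (meristem with younger leaves) and non-dividing tissue (the oldest 4 to 6 leaves) by mRNA-Seq, to follow expression from leaf primordia to mature leaves. Both tissues were dissected from 4 week old plants grown with 8 h of light at 20 to 22 °C. Growth followed 5 days of stratification at 4 °C. Each tissue gave 2 libraries, replicate 1 from the line Columbia HTR5-GFP and replicate 2 from the line Columbia HTR13-GFP. These lines carry a GFP fusion of an H3.3 gene (HTR5) or an H3.1 gene (HTR13) under its own promoter, so that all 4 libraries come from transgenic plants and the replicate number coincides with the line. It is not stated how many plants were pooled for a library, and p-values therefore measure only the spread between these libraries.

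Flavonoids are made from phenylalanine through the phenylpropanoid pathway. CHS condenses the coumaroyl and malonyl precursors to a chalcone, CHI closes its ring, F3H makes a dihydroflavonol and F3'H adds a hydroxyl group to the B ring. FLS1 then makes flavonols, which absorb ultraviolet light, whereas DFR and LDOX lead to the red and purple anthocyanins. MYB12 and MYB111 activate the early enzymes and FLS1, and PAP1, with basic helix-loop-helix and WD-repeat partners, activates the late enzymes.

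Short stretches in front of the coding sequences are shown because CHS, CHI and F3H, which are placed next to each other in the pathway, share a 7-base word there, while their transcripts differed in direction between the tissues. The 500 bases before the start codon of each gene, in RefSeq's annotation of TAIR10.1, were searched on both strands for the G-box (CACGTG) and for the AC elements named AC-I (ACCTACC), AC-II (ACCAACC) and AC-III (ACCTAAC). These windows can include the transcript's leader, and words that share bases were each counted. Each stretch is 30 bases long, is written 5′ to 3′ along the gene's own strand, and has the word in capitals; GGTAGGT and GGTTGGT are AC-I and AC-II on the other strand.
CHS, AC-I, chr5:4488607-4488636, plus strand: ccgtccatctaACCTACCacactctcatct
CHS, AC-III, chr5:4488685-4488714, plus strand: tttccaaatacACCTAACttgtttagtaca
CHI, AC-I, chr3:20431498-20431527, minus strand: taactattgctACCTACCcttctctcttct
CHI, G-box, chr3:20431541-20431570, minus strand: aaaacgaaagtaCACGTGcttacacatcca
F3H, AC-I, chr3:19025255-19025284, plus strand: agtagtaccgtGGTAGGTagctagcgacct
F3H, G-box, chr3:19024931-19024960, plus strand: acatgtctccgcCACGTGatttctccacag
DFR, AC-II, chr5:17166015-17166044, minus strand: cgtgcttctccGGTTGGTactcacgtgacc
DFR, G-box, chr5:17166029-17166058, minus strand: accaacgttcccCACGTGcttctccggttg
The AC-I words of CHS, F3H and CHI began 144, 143 and 101 bases before the start codon. AC-I was found in 2.16% of the 27443 protein-coding genes searched in the same way. A G-box was found in 6 of the 10 genes (CHI, F3H, DFR, LDOX, PAP1 and MYB12) and in 9.34% of all genes. Any AC element was found in 4 of the 10 (CHS, CHI, F3H and DFR) and in 11.6% of all genes. CHI, F3H and DFR had both kinds of word, as did 1.21% of all genes, and F3'H, FLS1 and MYB111 had neither. DFR had a second G-box, 159 bases before its start codon, and MYB12 also had 2, at 451 and 230 bases. These matches are descriptions of the sequence and not of binding.

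The tissue contrast was fitted with limma on log2(FPKM + 1). The fit held the 17967 annotations whose mean FPKM reached 1, p-values were adjusted over all of them by Benjamini-Hochberg, and the threshold was 0.05. Differences on this scale are dividing minus non-dividing and understate the change of genes with low FPKM. Of all annotations tested, 51.7% were higher and 18.2% lower in dividing tissue, with a median difference of 0.38. Scaling the libraries so that their median ratio to the average library was equal (called rescaled here) moved these shares to 31.0% and 30.7% and the median to 0.02. CHS, CHI, F3H, FLS1, DFR, LDOX and PAP1 passed the filter, and F3'H, MYB12 and MYB111 lay under it. FLS1, DFR, LDOX and PAP1 passed only through their level in dividing tissue. Of the 10 genes, 5 were higher in dividing tissue, 1 (CHI) was lower, 1 (PAP1) was not past the threshold and 3 were not tested, and these counts were the same after rescaling. The dividing libraries lay above both non-dividing libraries in 7 of the 10 genes and below them in 2 (CHI and F3'H), and the libraries of MYB12 overlapped. Over all tested annotations, which do not include F3'H, MYB12 and MYB111, 62.2% lay above and 24.8% below. In whole tissue, fewer cells of a type cannot be told apart from less RNA per cell.

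The early enzymes did not move together. CHS (AT5G13930, chromosome 5, 4488688 to 4490264 in TAIR9) had FPKM values of 25.2 and 17.8 in dividing tissue, against 1.68 and 0.802 in non-dividing tissue. Every dividing library lay above both non-dividing libraries. The mean of dividing tissue was 21.5 ± 5.25, against 1.24 ± 0.624 in non-dividing tissue (SD, n = 2 each). The ratio was 17.3 (14.96 in the HTR5-GFP and 22.2 in the HTR13-GFP line) and the log2 difference was 3.33 (standard error 0.26, limma adjusted p = 5.49e-04), or 3.03 after rescaling. By level, 78.9% of the protein-coding genes of the table had a lower mean FPKM than CHS in dividing tissue, against 41.2% in non-dividing tissue.

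CHI (AT3G55120, chromosome 3, 20430114 to 20431470), the enzyme that follows CHS, was lower in dividing tissue. Its FPKM was 6.81 and 5.83 in dividing tissue, against 11.7 and 12.2 in non-dividing tissue, without overlap. The ratio of the means was 0.529, and the log2 difference was -0.83 (standard error 0.11, limma adjusted p = 0.00213), or -1.19 after rescaling. F3H (AT3G51240, chromosome 3, 19025264 to 19026939), which acts on the product of CHI, was again higher in dividing tissue, with an FPKM of 10.0 and 8.29 in dividing tissue, against 3.42 and 3.96 in non-dividing tissue. Its ratio was 2.48 and its log2 difference 1.11 (standard error 0.13, limma adjusted p = 0.00163), or 0.77 after rescaling. F3H overlaps the antisense annotation AT3G51238, which had an FPKM between 0.199 and 0.457, and the library protocol as described does not mark the strand, so reads of this pair cannot be told apart. CHS shares its last bases with AT5G13940, which was listed at 0 in all 4 libraries.

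F3'H (AT5G07990, chromosome 5, 2560394 to 2563109) had the lowest level of the 7 enzymes in dividing tissue, with an FPKM of 0.731 and 0.480 in dividing, against 0.927 and 0.870 in non-dividing tissue. The libraries did not overlap, and the dividing ones were lower. Without the filter on low FPKM the log2 difference was -0.25 (95% interval -0.55 to 0.06, limma adjusted p = 0.121), in a fit that called 16.1% of annotations lower. With rescaling as well, a fit added after the data had been seen, it was -0.42 (limma adjusted p = 0.0331), past the threshold, as were 26.9% of annotations in that direction.

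**Figure D1:**
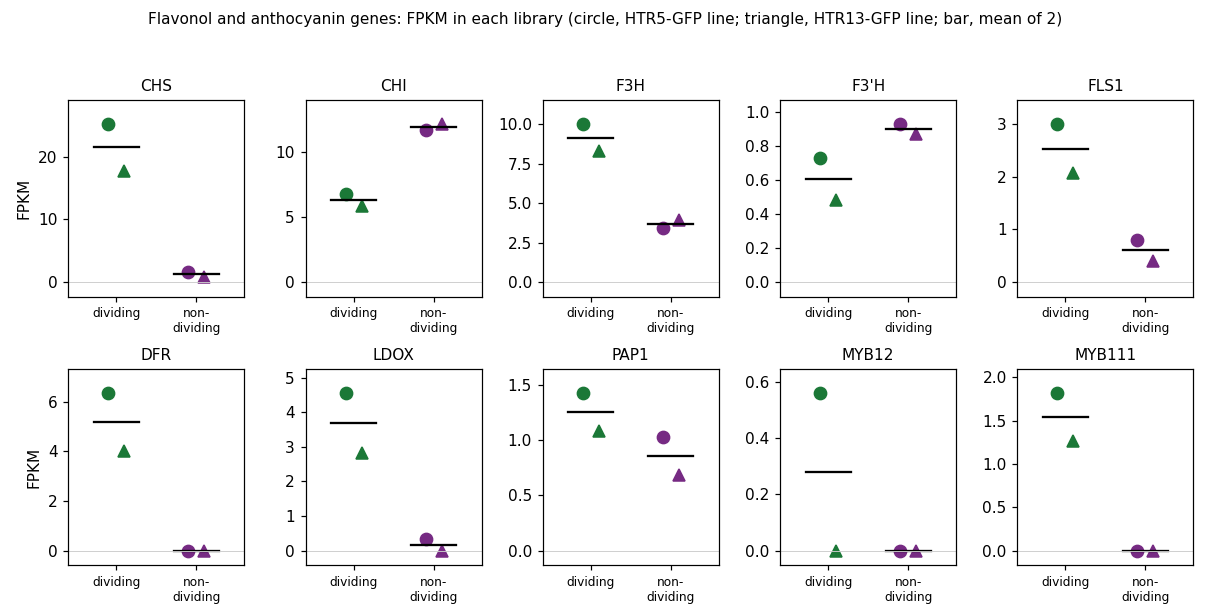
FPKM of the 10 genes in each library, with dividing tissue (green) on the left and non-dividing tissue (purple) on the right of each panel, circles for the HTR5-GFP line, triangles for the HTR13-GFP line and a bar for the mean of 2 libraries; each panel has its own linear axis. CHS reached 25.2 and 17.8 in dividing tissue against 1.68 and 0.802 in non-dividing tissue, while CHI ran the other way with 6.81 and 5.83 against 11.7 and 12.2.

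The order of the enzymes by level was therefore different in each tissue. In dividing tissue CHS stood first, followed by F3H (mean 9.15), CHI (6.32), DFR (5.19), LDOX (3.69) and FLS1 (2.54), and the libraries of neighbours overlapped from CHI down to FLS1. In non-dividing tissue CHI stood first (mean 11.95), followed by F3H (3.69) and CHS (1.24), with no overlap among these 3, and then by F3'H (0.899), whose values lay between those of CHS. The FPKM of the 7 enzymes summed to 56.7 and 41.3 in dividing tissue, against 18.9 and 18.2 in non-dividing tissue. CHS made up 44.5 and 43.1% of that sum in dividing tissue, against 8.91 and 4.41% in non-dividing tissue. CHI made up 12.02 and 14.1% in dividing tissue, against 62.1 and 66.8% in non-dividing tissue. These shares are descriptions and were not tested.

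FLS1, DFR and LDOX, of the flavonol and the anthocyanin branch, owed their place among the tested genes to dividing tissue, so their values without the filter are given too. The limma adjusted p without it was 0.00958 for FLS1, 0.00159 for DFR and 0.00396 for LDOX, with higher levels in dividing tissue. FLS1 (AT5G08640, chromosome 5, 2803958 to 2805447), which makes flavonols, had an FPKM of 3.0 and 2.07 in dividing tissue, against 0.804 and 0.408 in non-dividing tissue. Its ratio was 4.18 and its log2 difference 1.14 (standard error 0.20, limma adjusted p = 0.00602). Without dividing replicate 1 the limma adjusted p of FLS1 was 0.0528, and the call was lost. With 0.1 added to FPKM in place of 1, the log2 difference was 1.94 for FLS1, 5.69 for DFR and 4.17 for LDOX. After rescaling, with 1 added, it was 0.92 for FLS1, 2.45 for DFR and 1.83 for LDOX.

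DFR (AT5G42800, chromosome 5, 17164141 to 17165918), the first enzyme of the anthocyanin branch, had an FPKM of 6.36 and 4.02 in dividing tissue and was listed at 0 in each non-dividing library. A fold change is not given against a tissue at 0. The log2 difference, which depends on the 1 added, was 2.60 (standard error 0.21, limma adjusted p = 6.11e-04). LDOX (AT4G22880, chromosome 4, 12004768 to 12006209), the next enzyme, had an FPKM of 4.57 and 2.81 in dividing tissue, against 0.320 and 0 in non-dividing tissue. Its ratio within the HTR5-GFP line was 14.3, and its log2 difference over both lines was 2.00 (standard error 0.25, limma adjusted p = 0.00188). For both genes every dividing library lay above the non-dividing ones. DFR and FLS1 use the same substrates, and within a library of dividing tissue the FPKM of DFR was 2.12 and 1.94 times that of FLS1. In non-dividing tissue FLS1 was above 0 in both libraries and DFR in none.

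Of the 36-base stretches of DFR and LDOX, 96.4 and 95.1% occurred once in TAIR10.1, and of the other 8 genes 99.6% or more. The stretch length was chosen here, so these shares describe the sequence and not the reads.

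**Figure D2:**
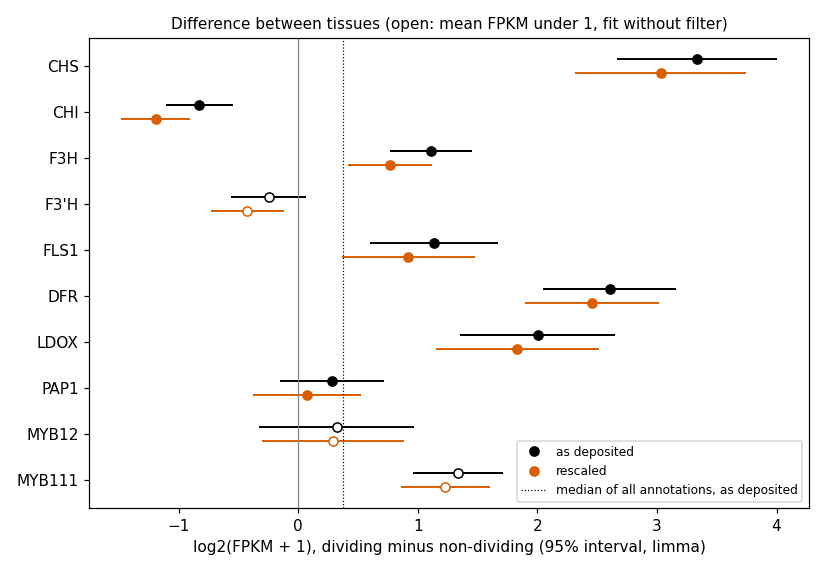
Difference of log2(FPKM + 1), dividing minus non-dividing, of the 10 genes with its 95% limma interval, from values as deposited (black) and rescaled (orange); open circles mark genes with a mean FPKM under 1, fitted without the filter, and the dotted line is the median of all annotations. CHS lies at 3.33 and CHI at -0.83, and the interval of PAP1 spans 0.

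The 3 transcription factors were low in both tissues, at or under 1.82 FPKM. MYB111 (AT5G49330, chromosome 5, 19998952 to 20001378), an activator of flavonol synthesis, had an FPKM of 1.82 and 1.26 in dividing tissue and was listed at 0 in each non-dividing library. Its mean over 4 libraries was under the filter; without the filter the log2 difference was 1.34 (standard error 0.13, limma adjusted p = 0.00248), in a fit that called 48.7% of 21017 annotations higher. MYB12 (AT2G47460, chromosome 2, 19476337 to 19479478), which has the same role, was above 0 only in dividing replicate 1, at 0.564 FPKM. Without the filter its log2 difference was 0.32 (95% interval -0.31 to 0.96, limma adjusted p = 0.284). PAP1 (AT1G56650, chromosome 1, 21233595 to 21235137), the anthocyanin activator, had an FPKM of 1.44 and 1.08 in dividing tissue, against 1.03 and 0.684 in non-dividing tissue. The libraries of PAP1 did not overlap, but its log2 difference of 0.28 (95% interval -0.14 to 0.71) did not pass the threshold (limma adjusted p = 0.180), and with quantile normalization it was -0.17. The median of all tested annotations was 0.38. Being listed at 0 in both non-dividing libraries and above 0 in both dividing libraries, as DFR and MYB111 were, was seen in 4.60% of the 20169 protein-coding genes above 0 in any library.

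The lines differed as well. In dividing tissue all 10 genes had a higher FPKM in the HTR5-GFP than in the HTR13-GFP library. Of all tested annotations, which do not include F3'H, MYB12 and MYB111, 44.5% did. For the 9 genes above 0 in both, the ratio of the lines was between 1.17 (CHI) and 1.63 (LDOX). In non-dividing tissue CHS, F3'H, FLS1, LDOX and PAP1 were higher in the HTR5-GFP library, CHI and F3H were lower and DFR, MYB12 and MYB111 were listed at 0 in both, and 44.1% of all tested annotations were higher. The HTR5-GFP library was the higher one in both tissues for those 5 genes and for 23.2% of annotations. There is 1 library per line and tissue, so the difference between lines has no replicate check. The calls of all 7 tested genes were the same in a fit with a replicate block, which called 54.1% of annotations higher and 20.2% lower.

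The helix-loop-helix partners of the MYB factors were listed at 0 in non-dividing tissue. The basic helix-loop-helix gene EGL3 had an FPKM of 3.68 and 2.86 in dividing tissue and was listed at 0 in both non-dividing libraries (log2 difference 2.09, limma adjusted p = 4.79e-04). EGL3 passed the filter only through dividing tissue, and without the filter its limma adjusted p was 0.00106. TT8 and GL3, which encode related factors, were also above 0 only in dividing tissue, at 0.449 and 0.212 FPKM for TT8 and 0.572 and 0.700 FPKM for GL3. Both lay under the filter, and without it both passed the threshold as higher (limma adjusted p = 0.0360 for TT8 and 0.00345 for GL3). The fit without the filter called 48.7% of annotations higher. TTG1, the WD-repeat partner, had 41.5 and 42.2 FPKM in dividing tissue, against 32.5 and 39.8 FPKM in non-dividing tissue (limma adjusted p = 0.168). MYB11, PAP2, MYB113 and MYB114, further MYB activators of the 2 branches, were listed at 0 in all 4 libraries. HY5, a light-signalling factor that activates CHS, was higher in dividing tissue (log2 difference 0.77, limma adjusted p = 0.0225), but not after rescaling (limma adjusted p = 0.131). Of these 9 activators 3 passed the filter, of which EGL3 and HY5 were higher and none was lower, and after rescaling 1 was higher. Over all annotations 51.7% were higher, or 31.0% after rescaling.

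Known repressors of the pathway were divided. MYBL2, a single-repeat MYB that blocks the activating complex, had an FPKM of 142 and 98.9 in dividing tissue, against 281 and 254 in non-dividing tissue, and its ratio was 0.451 (log2 difference -1.16, standard error 0.19, limma adjusted p = 0.00469). LBD37 and LBD38, nitrogen-responsive repressors of the anthocyanin genes, were lower in dividing tissue with ratios of 0.451 and 0.392 (limma adjusted p = 9.19e-04 and 0.00225). Their relative LBD39 had 27.7 and 22.9 FPKM in dividing, against 33.1 and 30.9 FPKM in non-dividing tissue (limma adjusted p = 0.0561) and passed the threshold in the fit with the block (limma adjusted p = 0.0220) or rescaled (0.00634). MYB4 was lower as well (log2 difference -0.56, limma adjusted p = 0.00777). SPL9, which reduces anthocyanin synthesis and is itself set by plant age, was higher in dividing tissue, with 10.9 and 9.51 FPKM against 1.34 and 0.801 FPKM in non-dividing tissue (log2 difference 2.45, limma adjusted p = 4.34e-04). CPC, a small MYB of the trichome pathway that also lowers anthocyanin, was higher (log2 difference 2.01, limma adjusted p = 0.00703), and so was COP1 (log2 difference 0.50, limma adjusted p = 0.00511), which lost its call after rescaling (limma adjusted p = 0.274). Of the 8 repressors, 3 were higher and 4 lower, beside 51.7% and 18.2% of all annotations. Their median difference was -0.45, beside 0.38 over all annotations. After rescaling 2 were higher and 5 lower, beside 31.0% and 30.7% of all annotations.

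**Figure D3:**
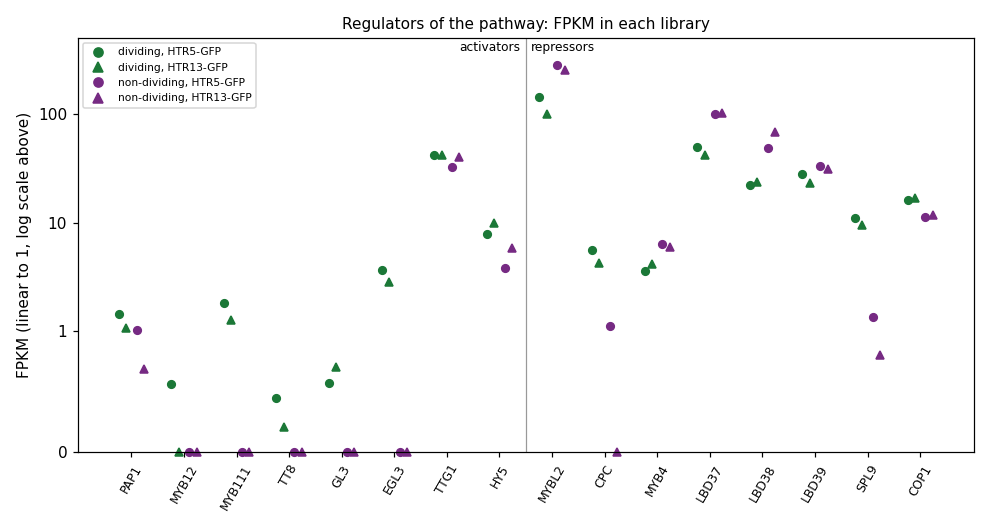
FPKM of the activators (left) and repressors (right) of the pathway that were above 0 in any library, with dividing tissue in green and non-dividing tissue in purple, circles for the HTR5-GFP and triangles for the HTR13-GFP line; the axis is linear up to 1 and logarithmic above. MYBL2 had the highest FPKM of these genes in every library, from 98.9 to 281, and MYB111, TT8, GL3 and EGL3 lie at 0 in both non-dividing libraries.

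The enzymes before and after the 7 were also measured. Of 8 genes for entry into the phenylpropanoid pathway, 5 were higher in dividing tissue and none was lower, with a median difference of 0.69, beside 51.7% higher, 18.2% lower and a median of 0.38 over all annotations. After rescaling 4 were higher and 2 (PAL2 and 4CL1) lower, beside 31.0% and 30.7% of all annotations. C4H, which hydroxylates cinnamate, had an FPKM of 163 and 167 in dividing, against 63.9 and 60.1 in non-dividing tissue (log2 difference 1.40, limma adjusted p = 3.67e-04). 4CL3, the coumarate ligase associated with flavonoids, had 3.68 and 2.45 FPKM in dividing, against 0.683 and 0.198 FPKM in non-dividing tissue (log2 difference 1.501, limma adjusted p = 0.00423). PAL4, 4CL2 and PAL1 were higher too, of which PAL1 lost its call after rescaling (limma adjusted p = 0.281). CHIL, a protein with the chalcone isomerase fold that aids CHS, had 13.9 and 8.75 FPKM in dividing tissue against 3.54 and 1.87 FPKM in non-dividing tissue (log2 difference 1.74, standard error 0.30, limma adjusted p = 0.00548), a direction opposite to that of CHI.

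Among 7 genes of flavonol decoration, UGT78D1 and UGT89C1, which add rhamnose to flavonols, were higher in dividing tissue (log2 differences 2.22 and 1.05, limma adjusted p = 2.94e-04 and 0.00200). OMT1, a methyltransferase that also serves lignin and sinapate synthesis, was lower (log2 difference -0.51, limma adjusted p = 0.00453). UGT78D2, which adds glucose to flavonols and anthocyanidins, had 10.8 and 11.8 FPKM in dividing, against 8.68 and 11.3 FPKM in non-dividing tissue and did not pass the threshold (limma adjusted p = 0.322). Of these 7 genes 2 were higher, 1 lower, 3 not past the threshold and 1 under the filter. Over all annotations 51.7% were higher and 18.2% lower. After rescaling 2 were higher and 2 (OMT1 and the UDP-rhamnose synthase RHM1) lower, beside 31.0% and 30.7% of all annotations. Among 8 genes of anthocyanin decoration and transport, GSTF12, needed to carry anthocyanin to the vacuole, and SCPL10, an acyltransferase, were higher (log2 differences 1.43 and 1.49, limma adjusted p = 0.0212 and 0.00209). BGLU10, a glucosyltransferase acting on anthocyanins, was lower, at 11.7 and 9.25 FPKM in dividing against 33.5 and 26.3 FPKM in non-dividing tissue (limma adjusted p = 0.00163). UGT75C1, 3AT1 and 3AT2, which add glucose or coumaroyl groups, did not pass the threshold, with log2 differences of 0.32, -0.09 and -0.24, and 3AT2 was lower after rescaling (limma adjusted p = 0.0161). The anthocyanin list thus had 2 genes higher, 1 lower, 3 not past the threshold and 2 under the filter, beside 51.7% and 18.2% of all annotations. After rescaling 2 were higher and 2 (BGLU10 and 3AT2) lower, beside 31.0% and 30.7%. UGT79B1 and 5MAT were above 0 only in dividing tissue, at or below 1.16 FPKM, and lay under the filter. Without it both passed the threshold (limma adjusted p = 0.0439 for UGT79B1 and 0.0117 for 5MAT), UGT79B1 no longer when rescaled as well (limma adjusted p = 0.0544). The FLS1 paralogs FLS2, FLS3 and FLS5 were likewise above 0 only in dividing tissue, between 0.419 and 0.743 FPKM. They passed the threshold without the filter (limma adjusted p = 0.00270, 0.00390 and 0.00597). That fit called 48.7% of annotations higher. FLS4 and FLS6 were listed at 0 in all libraries.

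**Figure D4:**
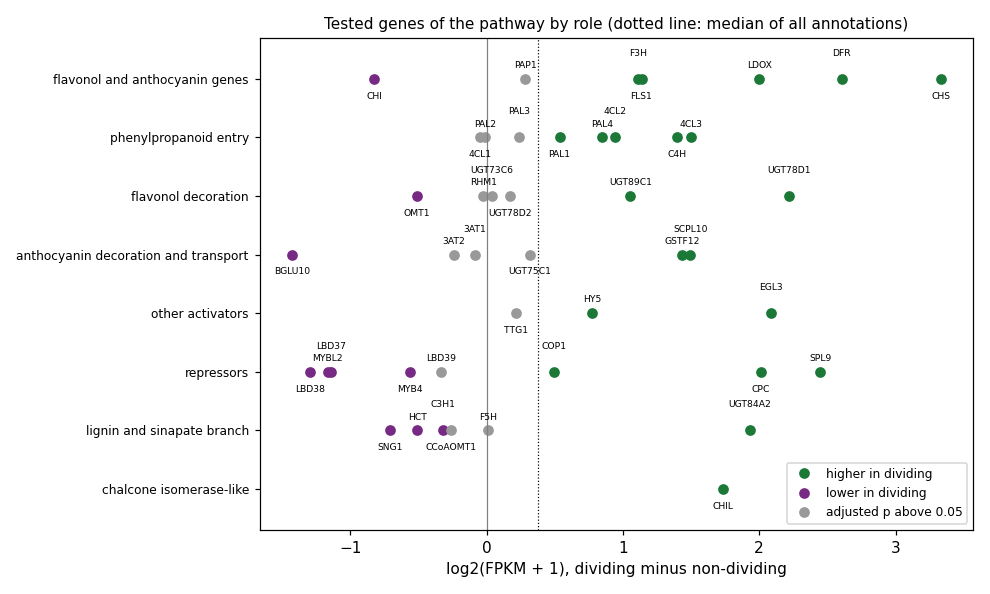
Difference of log2(FPKM + 1), dividing minus non-dividing, for the tested genes of each role, coloured green where higher and purple where lower in dividing tissue at a limma adjusted p under 0.05 and grey otherwise; the dotted line is the median of all annotations, 0.38. C4H, for entry into the pathway, lies at 1.40, and the repressors lie between -1.29 and 2.45.

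Over the 57 further genes of the pathway 38 passed the filter, of which 16 were higher and 9 lower. Of all annotations 51.7% were higher and 18.2% lower, or 31.0% and 30.7% after rescaling. The median difference of the 38 genes was 0.19, beside 0.38 over all annotations. The count of higher genes fell to 9 without dividing replicate 1 and to 10 without dividing replicate 2, and after rescaling 13 were higher and 15 lower. Without the filter 23 were higher, in a fit that called 48.7% of annotations higher. 4CL3, GSTF12 and CPC, like EGL3, passed the filter only through dividing tissue, and without it their limma adjusted p was 0.00780, 0.0336 and 0.0136. GSTF12 was no longer past the threshold without the filter and rescaled (limma adjusted p = 0.0612). Calls were lost for 4CL2, 4CL3, GSTF12, HY5, CPC, COP1, CHIL, MYB4, LBD38 and C3H1 (of the lignin branch) without dividing replicate 1, and for PAL1, PAL4, 4CL2, GSTF12, HY5, CPC, COP1, C3H1 and HCT (of the lignin branch) without dividing replicate 2. Without non-dividing replicate 1 those of HY5 and C3H1 were lost, and without non-dividing replicate 2 that of GSTF12.

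Markers of cell types were also compared between the tissues, and those that differed did so in both directions. The meristem gene STM had 20.7 and 21.6 FPKM in dividing tissue and was listed at 0 in non-dividing tissue, whereas WUS and CLV3, of the meristem centre, were listed at 0 in all libraries. The 3 genes of dividing cells (CYCB1;1, KNOLLE and CDKB2;1) were all higher in dividing tissue and summed to 61.6 and 59.8 FPKM against 2.85 and 3.87 FPKM in non-dividing tissue. Both epidermis genes were higher, but to a different extent. ATML1 had 46.0 and 46.6 FPKM in dividing tissue, against 24.2 and 29.1 FPKM in non-dividing tissue (ratio 1.74). PDF1 had 508 and 593 FPKM in dividing tissue, against 2.68 and 1.34 FPKM in non-dividing tissue (ratio 274). Both trichome genes (GL2 and GL1) were higher and summed to 27.6 and 31.6 FPKM against 0.212 and 0.378 FPKM in non-dividing tissue. Both phloem genes (SUC2 and APL) were lower in dividing tissue, with sums of 51.1 and 44.4 FPKM against 147 and 145 FPKM in non-dividing tissue. The ratio was 0.299 for SUC2 and 0.709 for APL. Of the guard cell genes FAMA was higher and KAT1 lower. The leaf gene RBCS1A had 8473 and 8454 FPKM in dividing tissue, against 7497 and 8767 FPKM in non-dividing tissue (limma adjusted p = 0.764). CAB1 was lower in dividing tissue (limma adjusted p = 0.0212), but not without the filter (limma adjusted p = 0.114). The part of these cell types in the differences of the 10 genes was not tested. The senescence gene SAG12 and the floral gene AP1 were listed at 0 in all libraries and the floral gene AG was above 0 in 1, at 0.273 FPKM. The seed coat genes BAN, TT2 and TT10 were listed at 0 in all libraries, TT12 was above 0 in 1, at 0.143 FPKM, and AHA10 lay between 0.311 and 0.513 FPKM.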

How the data were processed

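Poly-A RNA of 4 libraries was sequenced. Reads were mapped to the TAIR9 genome by the authors using TopHat 1.2.0, Bowtie 0.12.7 and SAMtools 0.1.13, who deposited the FPKM that Cufflinks 0.9.3 gave for each annotation and library, with no further scaling between libraries named. Whole reads could not be recovered (the commonest ratio of the dividing libraries was shared by 5 of 6357 low annotations). The paper gives the mapped reads of each library, but the exact count behind a single value is unknown, so count tests were not used. FPKM summed to between 700884 and 715002 per library, and between 13084 and 14269 annotations were listed at 0. Starts were raised by 1.

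All annotations were fitted with limma 3.58.1 in R 4.3.3 (trend, two-sided, pseudocount 1, mean FPKM of at least 1), and tables were made with Python 3.11.15 and pandas 2.3.3. This fit was tested on simulated data in which few annotations changed, unlike here, so that test does not check the calls given here. With 2 libraries per tissue the smallest exact permutation p is 0.333, so none was used. The replicate numbers pair the libraries by transgenic line (Pearson correlation of same-numbered deviations 0.257 over 17967 annotations). Alternatives were a pseudocount of 0.1, no filter or a mean FPKM of at least 5, the replicate block, rescaling, both together, quantile normalization, and leaving out each library. The genes and lists were chosen with earlier results of these data known, and named genes are the 10 genes and all genes of those lists. RefSeq sequences were read from TAIR10.1 with its own annotation, and coordinates of genes are those of TAIR9.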

Additional observations from a re-analysis of the deposited data

Results flagged for a closer look

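For 6 genes of the wider pathway the lines moved in opposite directions between the tissues; with 1 library per line and tissue this difference was not tested. The difference of log2(FPKM + 1), dividing minus non-dividing, was 0.61 for HTR5-GFP and -0.53 for HTR13-GFP plants in UGT73C6, a flavonol glucosyltransferase whose 4 values lay between 0.554 and 1.57 FPKM. The other 5 differed by less. It was 0.02 for HTR5-GFP and -0.03 for HTR13-GFP plants for PAL2, -0.13 and 0.04 for 4CL1, 0.07 and -0.12 for RHM1, -0.21 and 0.09 for AHA10, and 0.04 and -0.02 for F5H, in the same order of lines. None of the 10 flavonol and anthocyanin genes moved in opposite directions in the lines.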

How the results depend on the processing

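CHS, CHI, F3H, DFR and LDOX kept their direction and side of the threshold under all alternatives that could be fitted (10 or 11 a gene), with limma adjusted p of at most 0.0383, and FLS1 under 9 of 10. In 4 of these a library was left out, and the remaining library of that tissue was assumed to vary like those of the other tissue. Of the 10 genes, 5 were higher and 1 lower; leaving out single libraries gave 4 to 5 higher and 1 lower, a mean FPKM of at least 5 left 2 higher, since fewer genes were tested, and without the filter, rescaled, 2 were lower. With the replicate block no call of the 10 genes changed. Among the other pathway genes (16 higher, 9 lower) leaving out single libraries gave 9 to 16 higher and 6 to 10 lower, rescaling gave 15 lower and rescaling with the replicate block 17 lower, no filter gave 23 higher and quantile normalization 12 higher (4CL2 among the calls lost, limma adjusted p = 0.0730). Over all annotations (9282 higher, 3271 lower) the counts were 5562 and 5522 rescaled, 5986 and 5963 rescaled with the replicate block, 5804 and 5184 with quantile normalization, and 5661 to 8624 higher and 1868 to 2999 lower without single libraries; with the replicate block they were 9723 and 3625. Signs turned for genes that had not passed the threshold. Quantile normalization gave -0.17 for PAP1, -0.19 for PAL3, -0.18 for UGT78D2, -0.41 for UGT73C6, -0.14 for UGT75C1 and -0.22 for F5H. Rescaling, with or without the replicate block, gave -0.12 for PAL3, -0.20 for UGT78D2, -0.16 for UGT73C6, -0.19 for TTG1 and -0.39 for F5H. Leaving out single libraries gave -0.10 to 0.089 for PAL2, -0.14 to 0.044 for 4CL1, -0.32 to 0.40 for UGT73C6, -0.088 to 0.041 for RHM1, -0.22 to 0.051 for 3AT1 and -0.15 to 0.18 for F5H. The causes were not tested. The paper gives the mapped reads of each library, but the exact read counts behind single values were not recovered. This limits genes near 0 FPKM, such as MYB12.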

Other observations

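The branch that leads from the phenylpropanoid pathway to lignin and sinapate esters competes with CHS for coumaroyl-CoA. Of its 6 genes, HCT, C3H1 and SNG1 were lower in dividing tissue (log2 differences -0.51, -0.32 and -0.71, limma adjusted p = 0.00613, 0.0183 and 0.00384), and UGT84A2, which makes sinapoyl glucose, was higher (log2 difference 1.93, limma adjusted p = 3.58e-04). SNG1, which turns sinapoyl glucose into sinapoyl malate, an ultraviolet screen of leaves, had an FPKM of 312 and 282 in dividing, against 505 and 465 in non-dividing tissue. CCoAOMT1 had 130 and 139 FPKM in dividing, against 174 and 151 FPKM in non-dividing tissue and did not pass the threshold (limma adjusted p = 0.0868), but did after rescaling (limma adjusted p = 0.00593). The list of 6 thus had 1 gene higher and 3 lower, beside 51.7% and 18.2% of all annotations. The median difference of the 6 genes was -0.29, beside 0.38 over all annotations. After rescaling 1 gene was higher and 4 were lower, beside 31.0% and 30.7% of all annotations. Genes at consecutive steps of the same branch, SNG1 and UGT84A2, thus had opposite signs, as CHS and CHI did.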
